A study of Rattus norvegicus with 18 samples.

Results

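The 44 genes described here encode the proteins that set up DNA replication origins and build the replication fork, and all 44 are among the 13188 genes of the deposited rat expression table. They were taken from a list of symbols by role in replication, chosen with earlier results of these data known. RNA-seq was made from Rat1 fibroblasts of the line HO15.19, a rat fibroblast line that lacks functional endogenous myc (myc−/−), with 18 libraries in 6 groups of 3. The groups without MYC are myc−/− cells that were not transfected (labelled Sed) and myc−/− cells given control siRNA (Sed siCtrl). The groups with MYC are myc−/− cells carrying human MYC, either not transfected (SedMYC), given control siRNA (SedMYC siCtrl), or given siRNA against Ahr, the receptor for aryl hydrocarbons, under the labels siAHR-2 or siAHR-5 (SedMYC siAHR-2 and SedMYC siAHR-5). All libraries share the myc−/− background and, as labelled, 10% serum (the methods of the study give a lower serum content). The siRNA dose was 40 nM and cells were harvested 48 h later. MYC came from a stably integrated retroviral vector, so its level does not follow the rat promoter, and cells without it carried the empty vector, per the methods of the study. All 18 libraries come from this 1 parental line. No label says that the 3 cultures of a group were grown separately, so the p-values below measure the spread between these cultures, which may be technical.

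Replication is prepared in G1, when the origin recognition complex (ORC) marks origins and the licensing factors CDC6 and CDT1 load the ring-shaped MCM2-7 helicase on DNA. In S phase the kinase CDC7, with MCM10, CDC45 and the GINS complex, turns the loaded MCM ring into an active helicase, and polymerase α with primase starts each new strand before polymerases δ and ε, held by the sliding clamp PCNA, extend it. In dividing cells transcription of many of these genes rises toward S phase through factors of the E2F family, and MYC, a transcription factor that binds E-boxes, is known for driving cells such as fibroblasts into the cycle. AHR is a ligand-activated transcription factor that binds its own short DNA motif together with ARNT.

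Of the 44 genes, 37 have a promoter entry (250 bases before to 50 after the gene start) in the RefSeq table of the rat assembly GRCr8, and the entries for Orc1, Orc4, Cdc6, Mcm4, Gins4, Rpa3 and Rrm2 were not matched. Windows were searched on both strands for an E2F motif spelled TTTCCCGC, TTTCGCGC, TTTGCCGC or TTTGGCGC, for the E-box CACGTG, for the AHR core GCGTG and for CCAAT. An E2F motif was found in 18 of the 37 replication genes (48.6%), in 716 of 33469 promoters of the table (2.14%), and in 354 of 10275 promoters of other genes with deposited values (3.45%). The E-box was found in 4 of 37 (10.8%), namely Mcm2, Rfc1, Rpa1 and Fen1, against 6.42% of all promoters and 8.72% of those of other genes with values. The AHR core was found in 22 of 37 (59.5%), against 29.7% and 46.7%, and CCAAT also in 22 of 37, against 37.5% and 37.4%. Median GC content was 60% in the replication promoters, 51.7% over all promoters and 60% in those of the other genes with values. These matches describe the letters of the window and do not show that a factor binds there.

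All 5 MCM2-7 helicase genes with an entry hold an E2F motif, and those of Mcm2, Mcm5 and Mcm6 include a pair of copies that overlap on opposite strands. Windows of 30 bases around a match are shown for 3 helicase genes and for 4 genes that passed as higher in a MYC comparison below (Gins3, Pole, Cdt1 and Rfc3). They are written 5′ to 3′ on the strand of the gene. Capitals mark the 8 E2F letters, which appear as their reverse complement where the match is on the opposite strand. Positions count from the gene start in GRCr8, negative before it.
Mcm2 at −14, chr4:122918090-122918119, minus strand: cgtgacccggtTTTCGCGCgaaaacccgtg
Mcm3 at −6, chr9:30733734-30733763, minus strand: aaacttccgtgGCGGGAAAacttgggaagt
Mcm5 at −8, chr19:13488794-13488823, plus strand: ccaggttggttTTTCCCGCgaaagtcggct
Gins3 at −36, chr19:9434697-9434726, minus strand: gtgagtgaggcGCGGGAAAacgagtttgaa
Pole at −2, chr12:52053646-52053675, minus strand: cacatgagagcGCGCCAAAttttcccggga
Cdt1 at 8, chr19:67529245-67529274, plus strand: ccgcgaaaattGCGCGAAAtccgcgggaag
Rfc3 at −3, chr12:5836554-5836583, plus strand: acgtcgcagccTTTCGCGCtcgcgggaaaa

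Longer stretches, the 150 bases before the gene start, are shown for Mcm6, Mcm7 and Pcna. Mcm6 and Mcm7 were the MCM genes with the lowest log2FC in the siAHR-5 comparison, and Pcna alone of the 44 passed the cutoffs there. Capitals mark the E2F letters in Mcm6, where 2 copies overlap, and in Mcm7, where the copy at −52 overlaps a CCAAT. In Pcna they mark the AHR core, which reads GCGTG on the opposite strand. An AHR core of Mcm6, at −124, is left unmarked.
Mcm6, chr13:42404353-42404502, minus strand: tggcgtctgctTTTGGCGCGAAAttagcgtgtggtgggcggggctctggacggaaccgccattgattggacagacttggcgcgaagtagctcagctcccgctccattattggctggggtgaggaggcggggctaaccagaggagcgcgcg
Mcm7, chr12:22163179-22163328, minus strand: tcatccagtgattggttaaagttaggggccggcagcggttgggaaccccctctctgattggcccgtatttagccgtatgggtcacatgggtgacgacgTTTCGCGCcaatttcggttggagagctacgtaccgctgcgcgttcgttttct
Pcna, chr3:139955821-139955970, minus strand: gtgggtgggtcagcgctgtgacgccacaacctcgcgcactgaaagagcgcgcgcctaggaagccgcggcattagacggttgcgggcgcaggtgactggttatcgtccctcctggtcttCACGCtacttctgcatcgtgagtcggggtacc

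**Figure D1:**
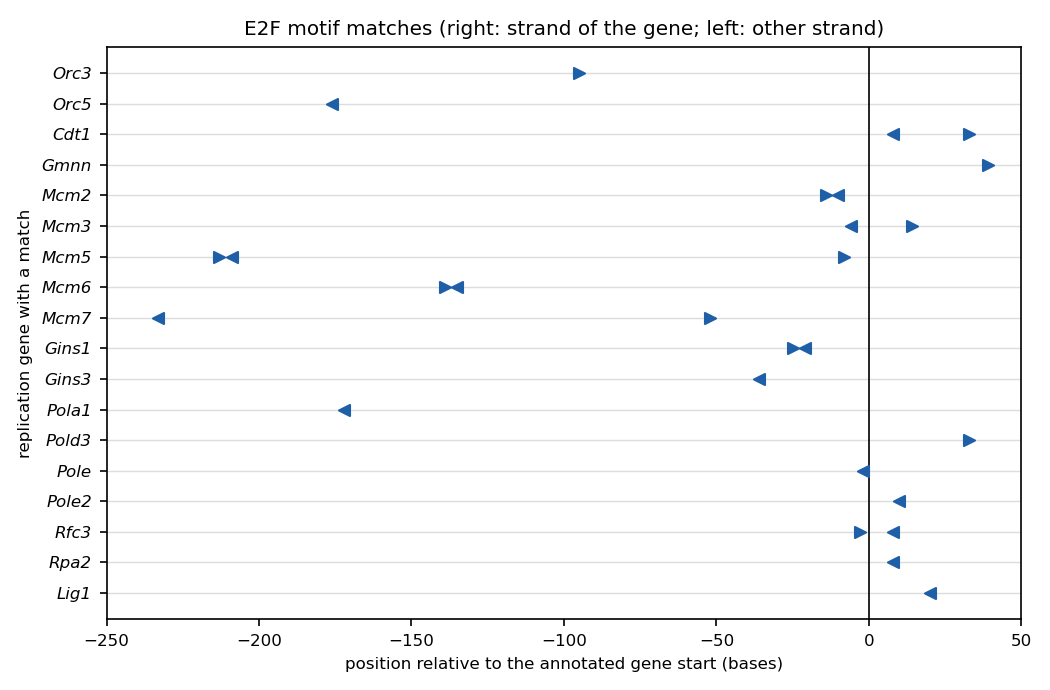
Positions of the E2F motif matches in the promoter windows of the 18 replication genes that hold one; the x axis gives bases from the annotated gene start, and the direction of a triangle gives the strand. Matches lie between −233 and 39, and those of Mcm2, Mcm5, Mcm6 and Gins1 include pairs of copies that overlap on opposite strands.

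The deposited values are on a log2 scale without read counts, so the read depth of a library is unknown. The libraries fall into a set of 6 (Sed siCtrl and SedMYC), called the smaller set here, and a set of 12 (the other groups), called the larger set. The sets are on different scales, split by a leading principal component with 74.7% of the variance, and groups were compared only within a set. All 10 fibroblast marker genes looked for were in the table. The lowest was Col1a2, with the same mean of 3.64 in SedMYC siCtrl, SedMYC siAHR-2 and SedMYC siAHR-5. That may be a floor of the deposited values, so being in the table does not show that Col1a2 was detected. Their summed level, carried mostly by Col1a1, Fn1 and Vim, was 20.87 to 20.89 in Sed siCtrl against 20.00 to 20.10 in SedMYC, and 22.02 to 22.24 in Sed against 20.28 to 20.31 in SedMYC siCtrl, lower with MYC both times. Single markers went both ways in the smaller set, with the mean of 5 of 10 higher with MYC and of 5 lower, while all 10 were lower in the larger set. The lower markers include Col1a2 each time. The summed level of the 4 measured of 5 epithelial markers was 8.18 to 8.25 against 8.63 to 8.81 and 7.76 to 7.92 against 8.77 to 9.11 in the same pairs, higher with MYC mainly through Krt8, whose mean went from 6.08 to 7.78 and from 7.70 to 8.87. The summed level of 5 endothelial markers was 8.28 to 8.38 against 8.56 to 8.64 and 9.34 to 9.48 against 9.55 to 9.67, although the mean of 3 and of 4 of the 5 was lower with MYC. The 4 measured leukocyte markers summed to 7.54 to 7.96 over all groups. The part of these shifts in the results below was not tested. Ahr was 13.34, 13.26 and 13.22 in the SedMYC siCtrl libraries and 11.97, 11.97 and 12.03 with siAHR-2 (log2FC −1.29, limma adjusted p = 0.000237). With siAHR-5 it was 11.95, 11.76 and 11.94 (log2FC −1.39, limma adjusted p = 0.000216), so each knockdown library was below each control library. The rat Myc entry had log2FC of −1.26 and −2.68 with MYC in the smaller and larger sets, and since human MYC has no entry of its own, it does not check the MYC label.

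The effect of MYC was asked in both sets, as SedMYC against Sed siCtrl in the smaller and as SedMYC siCtrl against Sed in the larger. In the larger set, genes from nearly every step of the pathway were higher with MYC, and 18 of 44 passed the cutoffs (fold of 1.5 or more and limma adjusted p of 0.01 or less), against 10.8% of all genes. They were 3 of the 6 ORC genes, 2 of the 3 licensing genes, 3 of the 6 MCM genes, 2 of the 7 firing factors, 5 of the 6 clamp and clamp loader genes, 1 of the 5 polymerase δ and ε genes, 1 of the 3 RPA genes and 1 of the 2 reductase genes. None of the 4 polymerase α and primase genes or of the 2 Okazaki fragment genes passed. In the smaller set only Orc1, Cdc6 and Rpa3 passed as higher, 3 of 44 against 12.5% of all genes. One gene of the 44, Rrm1, passed there as lower, against 14.3% of all genes. The median log2FC of the 44 was 0.53 (larger) and 0.07 (smaller), beside 0.00 for all genes each time. The smaller-set median was 0.17 after quantile normalization and 0.03 after median centring (0.01 and −0.05 for all genes). No replication gene passed as lower in the larger set by limma, where 14.7% of all genes did. At an unadjusted p below 0.05, 2 of 44 were lower, against 34.3% of all genes. As labelled, the siCtrl transfection changes together with MYC within each set: from transfected without MYC to untransfected with it in the smaller set, and the other way round in the larger. Inside either set, under these labels, the effect of MYC and that of transfection cannot be told apart. Orc1, Cdc6 and Rpa3 passed as higher with MYC in both sets, Cdc6 only at the fold cutoff in the smaller one. Cdc6 fell short there after median centring and without some single libraries. The part of transfection in these 3 genes was not tested. The values deposited for Sed siCtrl are headed only as control, and whether the titles Sed and Sed siCtrl were given to the right libraries could not be settled. Were they exchanged, each comparison would pair libraries of like transfection. In bulk RNA a larger share of cells in S phase and more RNA of these genes per cell cannot be told apart either.

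The libraries of most members separated by group. In the larger set all 3 libraries with MYC lay above all 3 without it for 38 of the 44 genes, against 33.8% of all genes. They lay below for 2, Fen1 and Rrm1, against 36.7%. The smaller set had 22 of 44 with the MYC libraries above, against 37.9%, and 18 with them below, against 40.9%. The median SD of the 44 genes between libraries was 0.0580 in the Sed group and 0.0444 in the SedMYC siCtrl group. The largest was 0.237, for Pole in Sed, where library 2 was farthest from the others.

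**Figure D2:**
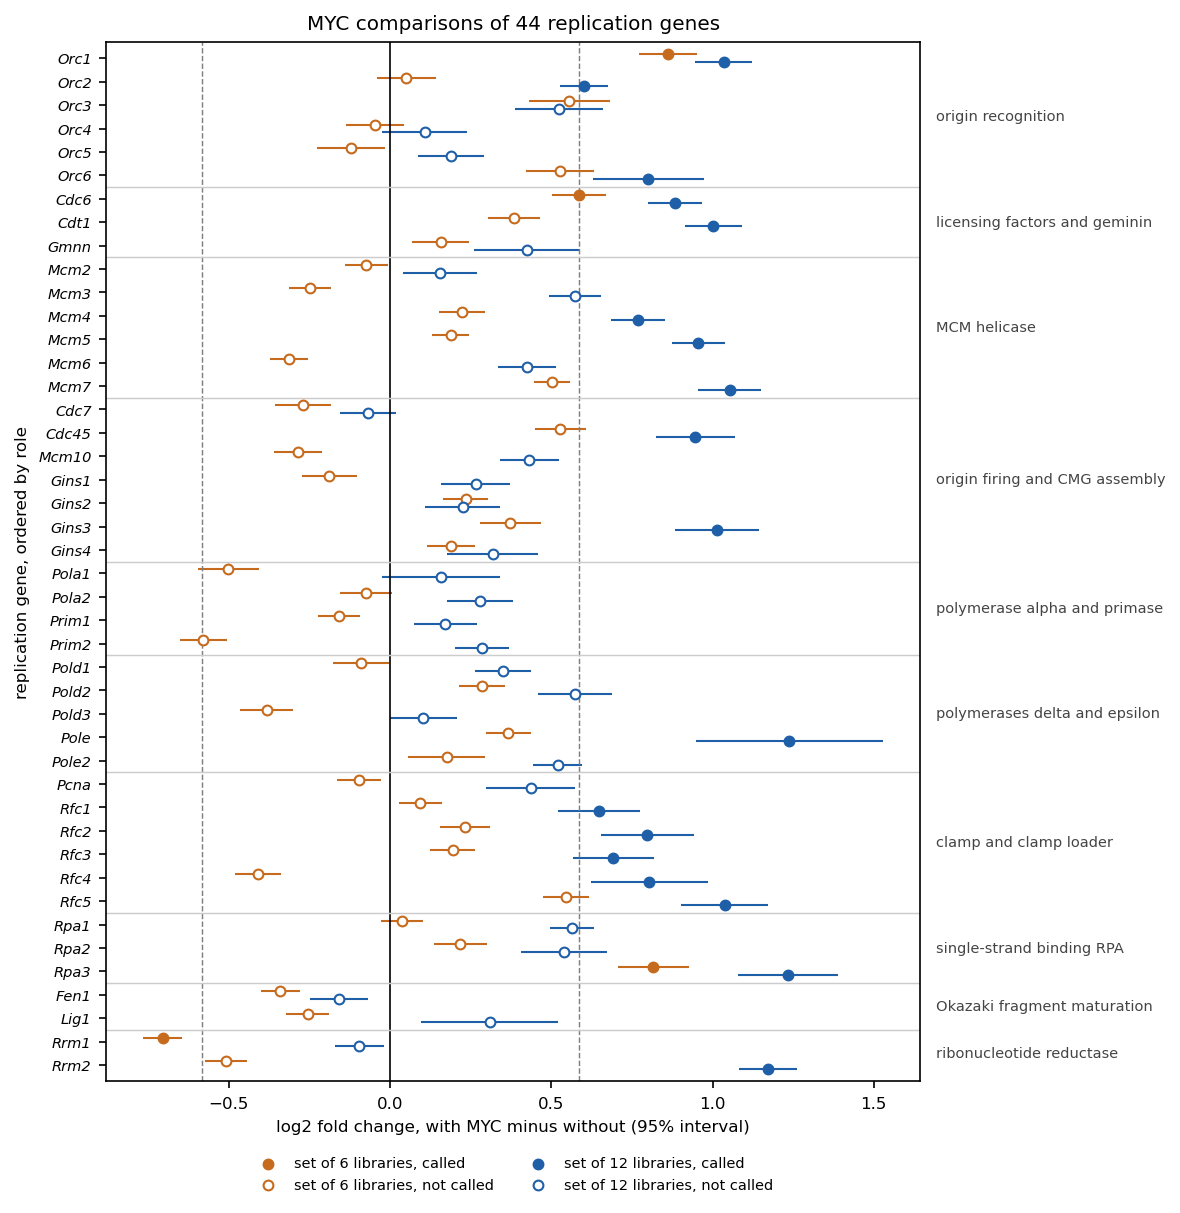
Log2 fold change of each of the 44 replication genes with MYC against without, in the smaller set of 6 libraries and the larger set of 12 (colours as in the key), grouped by role; bars are 95% intervals from limma, filled points passed both cutoffs and dashed lines mark a fold of 1.5. Of the 44 genes, 42 sit further right in the larger set, Orc3 and Gins2 being the exceptions.

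Among the origin recognition subunits, Orc1, whose protein comes and goes with the cell cycle, was higher with MYC whichever set was used. Its values in the smaller set were 11.07, 11.02 and 10.97 without MYC and 11.86, 11.87 and 11.91 with MYC (log2FC 0.86, SE 0.0406, limma adjusted p = 4.46e-09). Those in the larger set were 12.71, 12.63 and 12.61 without MYC and 13.67, 13.67 and 13.71 with MYC (log2FC 1.03, SE 0.0360, limma adjusted p = 3.41e-06). No library without MYC reached any library with MYC of its set, and the folds were 1.82 and 2.05.

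Orc2, a core subunit, had values of 12.39, 12.40 and 12.41 without MYC and 13.004, 12.96 and 13.03 with MYC in the larger set (log2FC 0.60, SE 0.0301, limma adjusted p = 1.38e-05), where groups did not overlap. It read 11.28, 11.18 and 11.20 without MYC and 11.26, 11.27 and 11.29 with MYC in the smaller set (log2FC 0.05), where they did. Without library 3 of SedMYC siCtrl its larger-set log2FC was 0.58, just under the cutoff. Orc6, which completes the complex, stood at 12.04, 12.21 and 11.997 without MYC and 12.89, 12.81 and 12.95 with MYC in the larger set (log2FC 0.80, SE 0.0694, limma adjusted p = 0.000136). Smaller-set values of Orc6 were 10.91, 10.80 and 10.83 without MYC and 11.31, 11.43 and 11.37 with MYC (log2FC 0.53), also apart but under the fold cutoff. Orc3, another core subunit, was 10.79, 10.67 and 10.65 without MYC and 11.36, 11.23 and 11.19 with MYC in the smaller set (log2FC 0.55). In the larger one it was 12.17, 12.12 and 12.25 without MYC and 12.72, 12.77 and 12.61 with MYC (log2FC 0.52), so the gap was alike in size and under the cutoff both times, though past it in the smaller set without Sed siCtrl library 1 (0.60) or SedMYC library 3 (0.59). Orc4 and Orc5 had log2FC of −0.05 and −0.12 in the smaller set, and of 0.11 and 0.19 in the larger.

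Both licensing factors passed in the larger set. Cdc6, the ATPase that joins ORC at origins, was 13.02, 12.97 and 13.03 without MYC and 13.87, 13.86 and 13.94 with MYC (log2FC 0.88, SE 0.0344, limma adjusted p = 5.19e-06). Its smaller-set values were 12.20, 12.14 and 12.15 without MYC and 12.81, 12.73 and 12.71 with MYC (log2FC 0.59, SE 0.0379, limma adjusted p = 6.64e-08). Every MYC library was above every library without MYC, but the smaller-set fold of 1.501 was at the cutoff. It fell short after median centring (log2FC 0.54) and without Sed siCtrl library 2 (0.57), Sed siCtrl library 3 (0.58) or SedMYC library 1 (0.55).

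Cdt1, the partner of CDC6 in MCM loading, had 13.04, 13.09 and 12.99 without MYC and 14.01, 14.05 and 14.07 with MYC in the larger set (log2FC 1.002, SE 0.0355, limma adjusted p = 3.66e-06), a fold of 2.003. The smaller set gave 13.07, 13.12 and 13.05 without MYC and 13.52, 13.45 and 13.41 with MYC (log2FC 0.38, limma adjusted p = 1.76e-06). Its groups were apart each time, with a smaller gap in the latter. Gmnn, which encodes geminin, the inhibitor of CDT1, had 12.86, 13.04 and 12.96 without MYC and 13.34, 13.30 and 13.48 with MYC in the larger set (log2FC 0.42). It had 12.27, 12.19 and 12.13 without MYC and 12.34, 12.34 and 12.37 with MYC in the smaller one (log2FC 0.16), again higher in every MYC library and under the fold cutoff.

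The 6 subunits of the MCM2-7 helicase were all higher with MYC, without overlap, in the larger set, and 3 of them passed the cutoffs. Mcm7 had values of 15.38, 15.46 and 15.35 without MYC and 16.41, 16.46 and 16.48 with MYC (log2FC 1.05, SE 0.0398, limma adjusted p = 4.65e-06). Mcm5 had values of 15.13, 15.11 and 15.10 without MYC and 16.03, 16.13 and 16.05 with MYC (log2FC 0.96, SE 0.0330, limma adjusted p = 3.28e-06). Mcm4 had values of 15.32, 15.22 and 15.27 without MYC and 16.02, 16.06 and 16.03 with MYC (log2FC 0.77, SE 0.0339, limma adjusted p = 8.3e-06). The folds of these 3 were 2.07, 1.94 and 1.70. Under the fold cutoff were Mcm3 at 14.99, 14.98 and 14.95 without MYC and 15.50, 15.54 and 15.60 with MYC (log2FC 0.57), Mcm6 at 15.84, 15.87 and 15.79 without MYC and 16.22, 16.25 and 16.31 with MYC (log2FC 0.42) and Mcm2 at 15.59, 15.52 and 15.56 without MYC and 15.71, 15.79 and 15.64 with MYC (log2FC 0.16). Mcm3 passed after quantile normalization (0.75), after median centring (0.62) or without SedMYC siCtrl library 1 (0.59), and Mcm6 after quantile normalization (0.61).

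The smaller set split the same subunits into 3 with the MYC libraries on top and 3 with them at the bottom. On top were those of Mcm7, 14.98, 14.97 and 14.96 without MYC and 15.46, 15.47 and 15.48 with MYC (log2FC 0.50, limma adjusted p = 7.52e-09). Mcm4 was 14.30, 14.24 and 14.20 without MYC and 14.48, 14.48 and 14.46 with MYC (log2FC 0.22) and Mcm5 was 14.67, 14.71 and 14.70 without MYC and 14.87, 14.88 and 14.90 with MYC (log2FC 0.19). At the bottom were those of Mcm6, 15.14, 15.10 and 15.10 without MYC and 14.81, 14.78 and 14.81 with MYC (log2FC −0.31, limma adjusted p = 7.25e-07). Mcm3 was 14.39, 14.39 and 14.34 without MYC and 14.16, 14.12 and 14.10 with MYC (log2FC −0.25, limma adjusted p = 1.34e-05), and Mcm2 was 15.06, 15.15 and 15.14 without MYC and 15.06, 15.04 and 15.04 with MYC (log2FC −0.07). None of the 6 passed the fold cutoff there, though Mcm7 did after quantile normalization (0.72).

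Factors that fire the origin and complete the CMG helicase (CDC45, MCM and GINS) differed among themselves. Cdc45 was 12.35, 12.35 and 12.29 without MYC and 13.18, 13.30 and 13.35 with MYC in the larger set (log2FC 0.95, SE 0.0496, limma adjusted p = 1.63e-05). It was 11.66, 11.65 and 11.64 without MYC and 12.22, 12.14 and 12.17 with MYC in the smaller (log2FC 0.53, limma adjusted p = 1.03e-07), and neither set overlapped. Of the 4 GINS subunits Gins3 alone passed, with 11.12, 10.95 and 11.09 without MYC and 12.09, 12.04 and 12.08 with MYC in the larger set (log2FC 1.01, SE 0.0529, limma adjusted p = 1.6e-05), a fold of 2.02. Its smaller-set values were 11.17, 11.17 and 11.12 without MYC and 11.59, 11.51 and 11.48 with MYC (log2FC 0.37), with the MYC libraries again the highest.

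Gins1 had 11.98, 12.07 and 11.96 without MYC and 12.22, 12.28 and 12.30 with MYC in the larger set (log2FC 0.26) but 11.60, 11.53 and 11.60 without MYC and 11.40, 11.41 and 11.36 with MYC in the smaller (log2FC −0.19, limma adjusted p = 0.000913), the reverse order. Gins2 was 12.54, 12.69 and 12.63 without MYC and 12.86, 12.80 and 12.86 with MYC (log2FC 0.22) and 12.17, 12.14 and 12.14 without MYC and 12.39, 12.39 and 12.37 with MYC (log2FC 0.23) in the same sequence of sets. Gins4 was 12.54, 12.68 and 12.54 without MYC and 12.83, 12.90 and 12.98 with MYC (log2FC 0.32) and 11.98, 11.95 and 11.99 without MYC and 12.17, 12.14 and 12.17 with MYC (log2FC 0.19). Both had their MYC libraries above the others and stayed under the fold cutoff.

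Mcm10, which helps to activate the helicase, was 12.79, 12.68 and 12.72 without MYC and 13.13, 13.18 and 13.16 with MYC in the larger set (log2FC 0.43, limma adjusted p = 0.000134). It was 12.72, 12.73 and 12.72 without MYC and 12.49, 12.43 and 12.39 with MYC in the smaller (log2FC −0.28, limma adjusted p = 1.27e-05), so the groups changed places. Cdc7, the kinase that phosphorylates MCM at origins, was 12.70, 12.63 and 12.67 without MYC and 12.58, 12.57 and 12.64 with MYC in the larger set (log2FC −0.07) with overlap. Its smaller-set values were 11.71, 11.74 and 11.70 without MYC and 11.49, 11.41 and 11.43 with MYC (log2FC −0.27), all MYC libraries being lower.

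The highest log2FC of the 44 in the larger set was that of Pole, the catalytic subunit of the leading-strand polymerase ε, just above Rpa3 (1.23). Pole lost that rank without Sed library 2, since Rpa3 stayed at 1.20 or more with any library left out. Pole was 14.14, 13.73 and 14.13 without MYC and 15.27, 15.26 and 15.18 with MYC (log2FC 1.24, SE 0.118, limma adjusted p = 0.000203), a fold of 2.36. Its log2FC ran from 1.10 without Sed library 2 to 1.31 without Sed library 1. The smaller set had 12.99, 13.01 and 12.93 without MYC and 13.36, 13.32 and 13.35 with MYC (log2FC 0.37, limma adjusted p = 8.82e-07). MYC libraries were above the others throughout, and Sed library 2 was the lowest of its group. Pole2, Pold1, Pold2 and Pold3, the other polymerase δ and ε subunits of the list, had larger-set log2FC of 0.52, 0.35, 0.57 and 0.10. Their smaller-set log2FC were 0.18, −0.09, 0.29 and −0.38. Pold2 passed in the larger set after quantile normalization (0.66) or median centring (0.62), and without Sed library 2 (0.61) or SedMYC siCtrl library 1 (0.60).

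Polymerase α and primase lay down the starting primer, and their 4 genes had larger-set log2FC between 0.16 (Pola1) and 0.29 (Prim2). In the smaller set these ran between −0.58 (Prim2) and −0.08 (Pola2), and none passed the cutoffs in either. Prim2, the large primase subunit, read 12.36, 12.33 and 12.33 without MYC and 11.76, 11.73 and 11.78 with MYC in the smaller set (log2FC −0.58, SE 0.0331, limma adjusted p = 2.27e-08). It read 12.49, 12.49 and 12.44 without MYC and 12.74, 12.73 and 12.81 with MYC in the larger (log2FC 0.29, SE 0.0340, limma adjusted p = 0.000557). Its MYC libraries were thus the lowest in the former and the highest in the latter. Prim2 passed as lower in the smaller set after median centring (−0.62) and without Sed siCtrl library 3 or SedMYC library 3 (both −0.59), which takes the number of lower genes there from 1 to 2.

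All 5 subunits of replication factor C, the clamp loader that opens PCNA and places it on DNA, passed as higher in the larger set. Rfc5 was 12.91, 13.03 and 12.84 without MYC and 13.97, 14.003 and 13.92 with MYC (log2FC 1.04, SE 0.0547, limma adjusted p = 1.66e-05). Rfc4 was 13.47, 13.69 and 13.50 without MYC and 14.33, 14.29 and 14.46 with MYC (log2FC 0.80, SE 0.0732, limma adjusted p = 0.000168). Rfc2 was 13.02, 13.19 and 13.03 without MYC and 13.81, 13.93 and 13.88 with MYC (log2FC 0.80, SE 0.0583, limma adjusted p = 6.54e-05). All 3 are small subunits, and none of their MYC libraries overlapped the others. Rfc3, the fourth small subunit, was 13.51, 13.64 and 13.48 without MYC and 14.19, 14.27 and 14.25 with MYC (log2FC 0.69, SE 0.0510, limma adjusted p = 6.76e-05). Rfc1, the large subunit, was 14.03, 13.89 and 14.08 without MYC and 14.66, 14.62 and 14.65 with MYC (log2FC 0.65, SE 0.0515, limma adjusted p = 9.33e-05). The groups of these were apart too, and each of the 5 kept its call under quantile normalization and median centring.

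None of the 5 passed in the smaller set, and they were not ordered alike. Rfc5 was 12.39, 12.33 and 12.31 without MYC and 12.87, 12.90 and 12.90 with MYC (log2FC 0.55, or 0.62 and past the cutoff after quantile normalization). Rfc2 was 12.69, 12.73 and 12.77 without MYC and 12.99, 12.98 and 12.91 with MYC (log2FC 0.23), Rfc3 12.98, 13.04 and 12.99 without MYC and 13.23, 13.19 and 13.17 with MYC (0.19) and Rfc1 13.05, 13.09 and 13.04 without MYC and 13.17, 13.16 and 13.12 with MYC (0.09). Against these 4, Rfc4 had all MYC libraries below the others, at 13.25, 13.18 and 13.22 without MYC and 12.83, 12.78 and 12.81 with MYC (log2FC −0.41, limma adjusted p = 4.02e-07). Pcna itself was 14.88, 15.06 and 14.88 without MYC and 15.35, 15.38 and 15.41 with MYC in the larger set (log2FC 0.44, limma adjusted p = 0.000769), reaching 0.62 and the cutoff after quantile normalization. It was 14.38, 14.31 and 14.30 without MYC and 14.21, 14.24 and 14.25 with MYC in the smaller (log2FC −0.10, limma adjusted p = 0.0133), with the groups apart in the opposite order.

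Of the RPA subunits, which coat single-stranded DNA, Rpa3 passed in either set. Its smaller-set values were 10.99, 10.87 and 10.80 without MYC and 11.72, 11.70 and 11.69 with MYC (log2FC 0.82, SE 0.04997, limma adjusted p = 4.11e-08). The larger-set values were 12.15, 12.31 and 12.13 without MYC and 13.49, 13.35 and 13.45 with MYC (log2FC 1.23, SE 0.0631, limma adjusted p = 1.48e-05). No groups overlapped, and the folds were 1.76 and 2.35. Rpa1 and Rpa2 had larger-set log2FC of 0.56 and 0.54, and smaller-set log2FC of 0.04 and 0.22. In the larger set Rpa1 passed after quantile normalization (0.73) or median centring (0.61), and Rpa2 after quantile normalization (0.59) or without Sed library 2 (0.59).

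Fen1, the flap nuclease that trims Okazaki fragments, had lower values with MYC each time, under the fold cutoff. Larger-set values were 14.52, 14.57 and 14.46 without MYC and 14.34, 14.34 and 14.39 with MYC (log2FC −0.16, limma adjusted p = 0.00973). Smaller-set values were 14.02, 14.04 and 14.02 without MYC and 13.70, 13.68 and 13.67 with MYC (log2FC −0.34, limma adjusted p = 3.86e-07), and no MYC library reached the others. Lig1, the ligase that joins the fragments, had log2FC of 0.31 (larger) and −0.26 (smaller).

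Ribonucleotide reductase, which makes the deoxynucleotides, includes the gene with the widest gap between the sets. Rrm2, its S-phase subunit, was 14.94, 14.85 and 14.92 without MYC and 16.11, 16.08 and 16.03 with MYC in the larger set (log2FC 1.17, SE 0.0364, limma adjusted p = 2.21e-06), a fold of 2.25. It was 14.62, 14.61 and 14.62 without MYC and 14.08, 14.10 and 14.16 with MYC in the smaller (log2FC −0.51, SE 0.0293, limma adjusted p = 2.48e-08). All MYC libraries were above the others in the former and all were below in the latter. Rrm1, the large subunit, was 15.68, 15.63 and 15.63 without MYC and 14.95, 14.94 and 14.94 with MYC in the smaller set (log2FC −0.71, SE 0.0273, limma adjusted p = 8.52e-10), 1.63-fold lower with MYC. The larger set had 16.43, 16.37 and 16.39 without MYC and 16.33, 16.30 and 16.28 with MYC (log2FC −0.10, limma adjusted p = 0.0348). Its MYC libraries were the lowest each time, and the smaller-set call was lost after quantile normalization (−0.49).

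**Figure D3:**
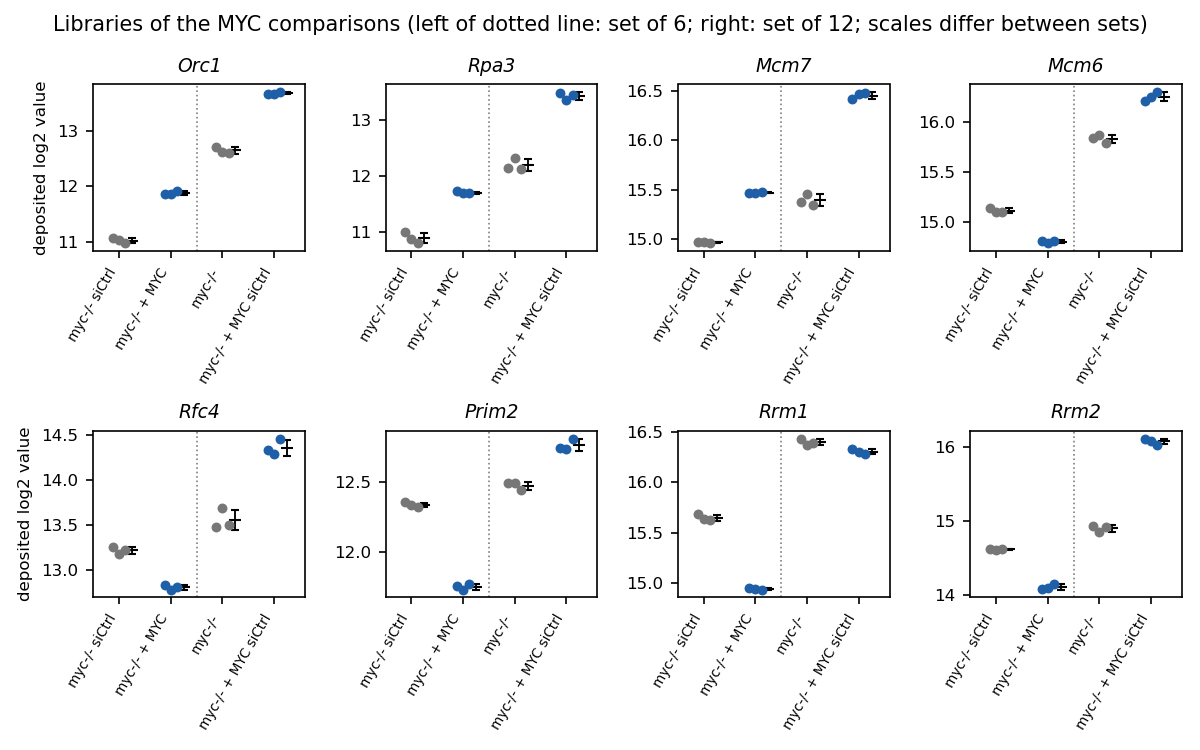
Deposited log2 value of 8 replication genes in each library of the MYC comparisons (dots; bars are the mean ± SD of 3 libraries), with the set of 6 left of the dotted line and the set of 12 right of it, on different scales. Orc1, Rpa3 and Mcm7 are higher with MYC on both sides, Rrm1 is lower on both, and Mcm6, Rfc4, Prim2 and Rrm2 are lower on the left and higher on the right.

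Whether the MYC effects of the sets differ was tested directly, as the larger-set effect minus the smaller-set effect in one limma fit of 12 libraries. The difference was above 0 for 42 of the 44 genes, with a median of 0.49 beside −0.02 for all genes. It passed the cutoffs for 12 of 44, against 6.79% of all genes. On the log2 scale these were Rrm2 (1.68), Rfc4 (1.21), Pole (0.87), Prim2 (0.87), Mcm3 (0.82), Mcm5 (0.77), Mcm6 (0.74), Mcm10 (0.72), Pola1 (0.66), Gins3 (0.64), Cdt1 (0.62) and Rrm1 (0.61). For Rrm2 the SE was 0.0514 and the limma adjusted p 2.1e-12, and for Rfc4 they were 0.0787 and 6.79e-09. None of the 44 passed with a difference below 0 by limma, where 9.67% of all genes did. None was below 0 at an unadjusted p below 0.05 either, against 32.7%. For Orc1 (0.17), Orc3 (−0.03), Orc4 (0.15), Orc6 (0.27), Gins2 (−0.01) and Gins4 (0.13) the limma adjusted p of the difference was above 0.01, from 0.0138 to 0.907. Mcm3, Mcm6, Mcm10, Gins1, Prim2, Rfc4 and Rrm2 had opposite signs with a limma adjusted p of 0.01 or less in each set. The share of all genes meeting this rule was not counted, so these genes are named as a description only. The part of transfection order and of scale in the difference was not tested. Differences fell under the cutoff after quantile normalization for Cdt1 (0.53), Gins3 (0.58) and Rrm1 (0.56), and without Sed library 2 for Pola1 (0.58). Median centring raised the number of the 44 passing from 12 to 20, and the share of all genes from 6.79% to 8.7%.

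The 37 replication genes with a promoter entry can also be split by the E2F letters shown above, as a description. Orc1, Cdc6, Mcm4, Rpa3 and Rrm2 passed as higher in the larger set but have no entry, so they are in neither part. In the larger set the 18 genes with a match had a median log2FC of 0.52 (range 0.10 to 1.24) and 6 of them passed as higher, beside 10.8% and a median of 0.00 for all genes. The 19 without had a median of 0.44 (−0.16 to 1.04) and 7 passed. Smaller-set medians were 0.17 and −0.08, with no gene passing as higher among either (12.5% of all genes) and 1, Rrm1, passing as lower among those without a match (14.3%). Every member that passed as higher there (Orc1, Cdc6 and Rpa3) lacks an entry, so the split leaves them out. Mcm5, Mcm7 and Gins3, which hold the letters, passed in the larger set, and so did Rfc2, Rfc4 and Rfc5, which hold none in this window.

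The question of the siRNA comparisons was whether replication genes change in MYC-carrying cells when AHR is knocked down. With siAHR-2 none of the 44 passed the cutoffs in limma, where 0.159% of all genes passed as higher and 0.311% as lower. At an unadjusted p below 0.05, 13 of 44 were higher, against 19.9% of all genes, and 6 were lower, against 20.5%. The median log2FC was 0.02 beside 0.00 for all genes (−0.015 and −0.031 after median centring), and the 95% intervals of the 44, which are not adjusted for the number of genes, ran from −0.44 (Mcm3) to 0.54 (Prim2), inside a fold of 1.5 in either direction. With siAHR-5 only Pcna passed, as lower, 1 of 44 against 0.849% of all genes, and none passed as higher, against 1.48%. At an unadjusted p below 0.05, 27 of 44 were lower with siAHR-5, against 21.2% of all genes, and 6 were higher, against 26.5%. The siAHR-5 libraries lay below the siCtrl libraries without overlap for 28 of 44, against 22.2%, and above for 6, against 28.3%. The median log2FC with siAHR-5 was −0.12 beside 0.01 for all genes, and 37 of 44 values were below 0. Both comparisons use the same 3 SedMYC siCtrl libraries, which are also the MYC libraries of the set of 12.

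Pcna, the sliding clamp, was 15.35, 15.38 and 15.41 in the SedMYC siCtrl libraries and 14.60, 14.50 and 14.52 with siAHR-5 (log2FC −0.84, SE 0.0336, limma adjusted p = 0.000199), 1.79-fold lower. With siAHR-2 it was 15.53, 15.53 and 15.56 (log2FC 0.16, limma adjusted p = 0.0043), above the controls and under the fold cutoff. The siAHR-5 libraries of Pcna also lay below the Sed libraries, which carry no MYC and were 14.88, 15.06 and 14.88. Leaving out each of the 6 libraries in turn kept the siAHR-5 call, with log2FC between −0.87 and −0.82. The stretch before the Pcna start shown above holds 1 AHR core, at −32 on the opposite strand, and the whole window holds another at −237. Such a core was found in 22 of the 37 replication promoters and in 46.7% of those of other genes with values. Its part in the Pcna values was not tested.

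The MCM helicase genes were all below their controls with siAHR-5, none past the fold cutoff. Mcm6 was 16.22, 16.25 and 16.31 in the control libraries and 15.75, 15.72 and 15.72 with siAHR-5 (log2FC −0.52, SE 0.0273, limma adjusted p = 0.000303). It was 16.11, 16.10 and 16.15 with siAHR-2 (log2FC −0.14) and 15.84, 15.87 and 15.79 in Sed, so the siAHR-5 libraries were the lowest of the 12. Mcm7 was 16.41, 16.46 and 16.48 in the controls and 15.97, 15.997 and 15.93 with siAHR-5 (log2FC −0.49, SE 0.0272, limma adjusted p = 0.000342). It was 16.41, 16.42 and 16.39 with siAHR-2 (log2FC −0.04), which overlapped the controls.

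Among the larger-set groups with MYC, Mcm3 had its lowest values with siAHR-2, 15.15, 15.17 and 15.20 against 15.50, 15.54 and 15.60 in the controls (log2FC −0.37, SE 0.0287, limma adjusted p = 0.00108). With siAHR-5 it was 15.37, 15.38 and 15.36 (log2FC −0.18), and neither knockdown overlapped the controls. Mcm2, Mcm4 and Mcm5 had log2FC of −0.22, −0.28 and −0.19 with siAHR-5, and of −0.03, −0.03 and −0.02 with siAHR-2.

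Among the licensing and origin genes, Cdt1 was 14.01, 14.05 and 14.07 in the controls and 13.70, 13.79 and 13.64 with siAHR-5 (log2FC −0.33, limma adjusted p = 0.00248). It was 14.15, 14.13 and 14.13 with siAHR-2 (log2FC 0.09). Orc1 was 13.67, 13.67 and 13.71 in the controls, 13.45, 13.41 and 13.46 with siAHR-5 (log2FC −0.25) and 13.61, 13.63 and 13.67 with siAHR-2 (log2FC −0.05). For these 2 genes the siAHR-5 libraries were the lowest of those with MYC, yet above every Sed library. Orc4, the ORC gene with the lowest siAHR-2 log2FC, was 12.51, 12.39 and 12.46 in the controls and 12.27, 12.37 and 12.28 with that siRNA (log2FC −0.15, limma adjusted p = 0.0519).

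Gins4 was 12.83, 12.90 and 12.98 in the controls and 12.44, 12.48 and 12.50 with siAHR-5 (log2FC −0.43, limma adjusted p = 0.0012), against 12.79, 12.83 and 12.81 with siAHR-2. Its siAHR-5 libraries were below the Sed libraries too, which were 12.54, 12.68 and 12.54. Rfc3 was 14.19, 14.27 and 14.25 in the controls and 13.83, 13.86 and 13.85 with siAHR-5 (log2FC −0.39, limma adjusted p = 0.0005). It was 14.26, 14.28 and 14.23 with siAHR-2, overlapping the controls.

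A few members were higher with either siRNA, all under the fold cutoff. Prim2 was 12.74, 12.73 and 12.81 in the controls, 13.23, 13.24 and 13.24 with siAHR-2 (log2FC 0.48, SE 0.0245, limma adjusted p = 0.000449) and 13.16, 13.04 and 13.18 with siAHR-5 (log2FC 0.37, SE 0.0464, limma adjusted p = 0.00251). Mcm10 was 13.13, 13.18 and 13.16, 13.51, 13.50 and 13.60 (log2FC 0.38) and 13.47, 13.41 and 13.43 (log2FC 0.28) in that order. No control library reached the knockdown libraries of these genes.

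Rfc1 was 14.66, 14.62 and 14.65 in the controls and 15.03, 14.96 and 15.05 with siAHR-5 (log2FC 0.37). It was 14.74, 14.76 and 14.78 with siAHR-2 (log2FC 0.12), between the other groups. Pold3, a polymerase δ subunit, was 12.76, 12.71 and 12.80 in the controls and 13.14, 13.06 and 13.11 with siAHR-5 (log2FC 0.35). With siAHR-2 it was 12.96, 12.94 and 13.02 (log2FC 0.21), again between the other groups. Pola2, the regulatory subunit of polymerase α, was 12.82, 12.90 and 12.88 in the controls and 13.11, 13.11 and 13.09 with siAHR-2 (log2FC 0.24, limma adjusted p = 0.00275). It was 12.79, 12.80 and 12.73 with siAHR-5 (log2FC −0.09), below the controls.

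**Figure D4:**
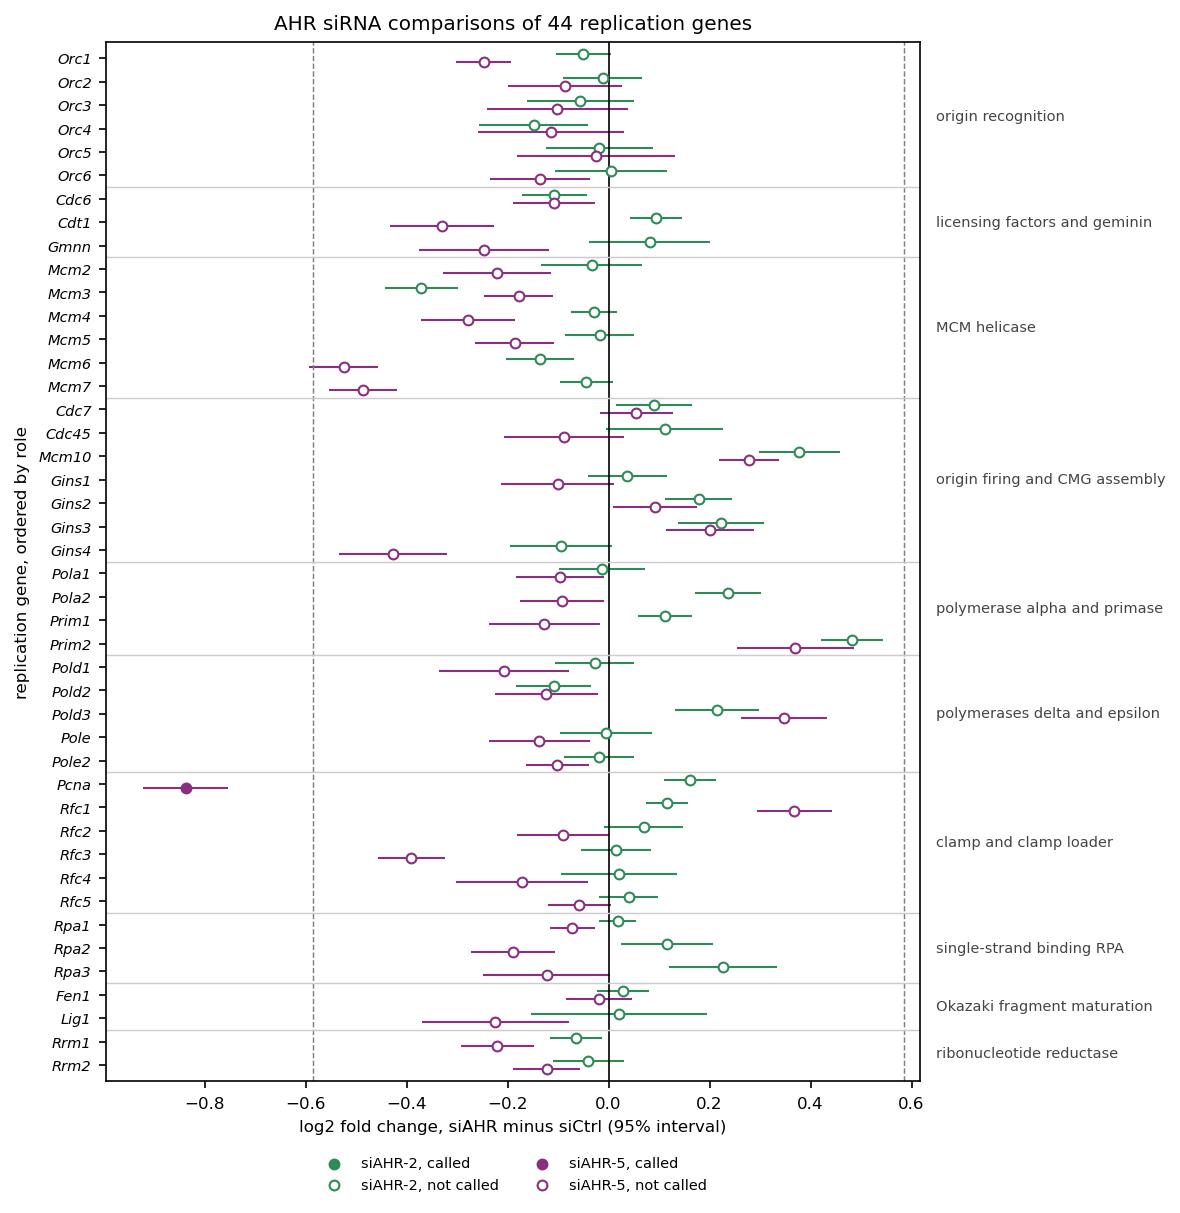
Log2 fold change of the 44 replication genes with siAHR-2 (green) and siAHR-5 (purple) against the shared SedMYC siCtrl libraries; bars are 95% intervals from limma, filled points passed both cutoffs and dashed lines mark a fold of 1.5. Pcna with siAHR-5, at −0.84, is the only filled point, and 37 of the 44 siAHR-5 values lie below 0.

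**Figure D5:**
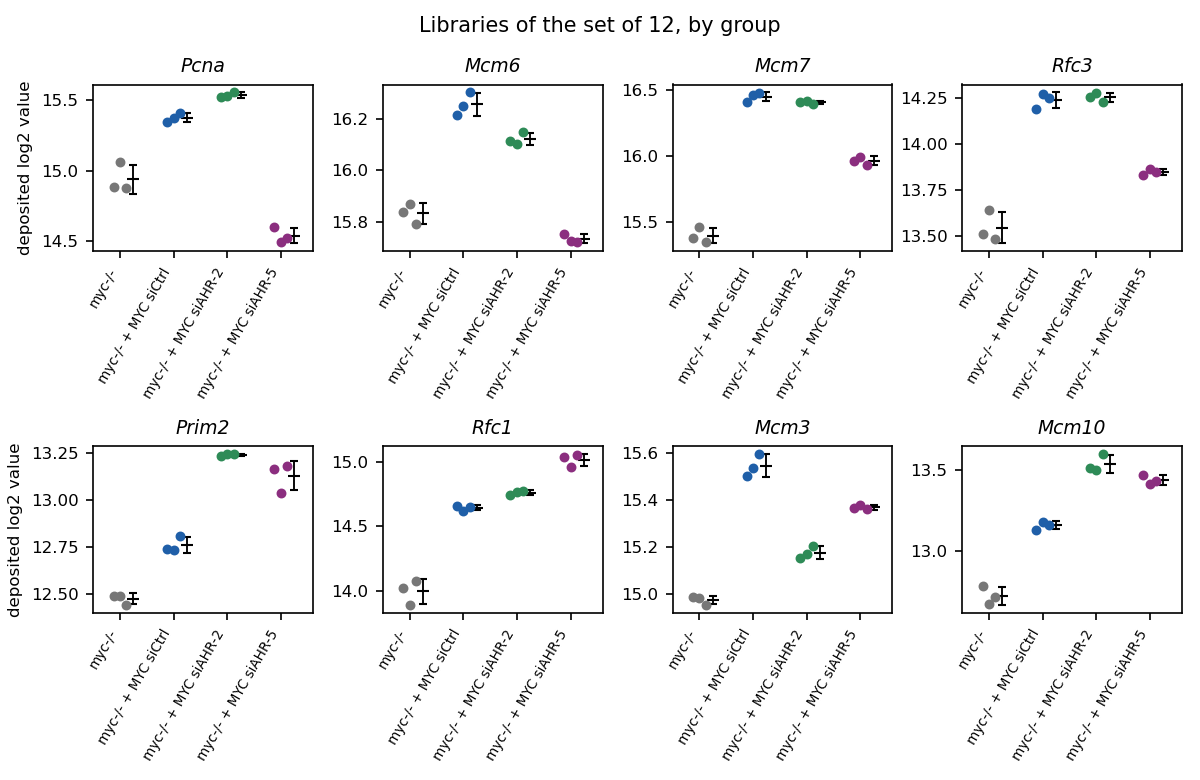
Deposited log2 value of 8 replication genes in each of the 12 libraries of the larger set (dots; bars are the mean ± SD of 3 libraries), ordered as myc−/−, siCtrl, siAHR-2 and siAHR-5. Pcna is lowest with siAHR-5, Mcm6, Mcm7 and Rfc3 are lower with siAHR-5 than with siCtrl, and Prim2 and Mcm10 are higher with both siRNAs.

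The siRNAs were also set against each other. Compared directly, siAHR-5 minus siAHR-2 passed as lower for 1 of 44, Pcna (log2FC −0.999, SE 0.0299, limma adjusted p = 5.44e-05), against 0.849% of all genes. It passed as higher for none, against 1.33%. At an unadjusted p below 0.05 the siAHR-5 libraries were lower for 32 of 44, against 20.8% of all genes, and higher for 3, against 26%. The median difference of the 44 was −0.14 beside 0.01 for all genes. After Pcna the lowest were Mcm7 (−0.44), Cdt1 (−0.42) and Rfc3 (−0.41). At the other end came Rfc1 (0.25), Mcm3 (0.19) and Pold3 (0.13), none of them past the fold cutoff. Ahr itself differed between the siRNAs by −0.11 on the log2 scale (limma adjusted p = 0.211).

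A wider list of 23 measured replication factors that are not among the 44 gave 7 higher and 0 lower in the larger set, where 10.8% and 14.7% of all genes passed, with a median log2FC of 0.39. The smaller set gave 2 higher and 1 lower, where 12.5% and 14.3% of all genes passed, with a median of 0.16. Timeless, a fork protection factor, was 14.01, 13.93 and 14.02 without MYC and 14.88, 14.94 and 14.92 with MYC in the larger set (log2FC 0.93, SE 0.0346, limma adjusted p = 4.49e-06), and its partner Tipin passed in each set (log2FC 0.71 and 0.66). Also past the cutoffs in the larger set were Recql4 (log2FC 0.89), a helicase of origin firing, and Lrwd1 (0.87), an ORC-associated protein. Wdhd1, a polymerase α cofactor at the fork, was lower in the smaller set, 14.52, 14.47 and 14.41 without MYC and 13.54, 13.56 and 13.56 with MYC (log2FC −0.91), and Chtf18, of an alternative clamp loader, was higher there (log2FC 0.60). With siAHR-5, 1 of the 23 passed as lower and none as higher, beside 0.849% and 1.48% of all genes. It was Pole3, a small subunit of polymerase ε, at 12.59, 12.57 and 12.65 against 13.59, 13.61 and 13.65 in the controls (log2FC −1.01, SE 0.0299, limma adjusted p = 0.000113). It was 13.63, 13.67 and 13.69 with siAHR-2, so its siAHR-5 libraries were below those of either other group. None of the 23 passed with siAHR-2, beside 0.159% of all genes as higher and 0.311% as lower.

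Of 10 measured E2F and RB family genes, the regulators through which S-phase genes are switched on, 2 passed as higher and none as lower in the larger set, beside 10.8% and 14.7% of all genes. The smaller set had 2 passing as higher and 1 as lower, beside 12.5% and 14.3%. E2f1, an activator, was 12.93, 12.94 and 12.93 without MYC and 12.34, 12.22 and 12.25 with MYC in the smaller set, lower with MYC (log2FC −0.66), while its larger-set log2FC was −0.34. E2f4, a repressor in resting cells, was higher each time (log2FC 0.76 and 0.64). E2f7, an atypical repressor, was higher in the larger set (1.07) and Tfdp2, an E2F partner, in the smaller (0.68). None of the 10 passed with either siRNA against siCtrl, where few of all genes did (0.159% to 1.48% by siRNA and direction), and Tfdp2 was lower with siAHR-5 than with siAHR-2 (log2FC −0.60).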

How the data were processed

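Per the study's methods, the authors mapped reads to rn6 using HISAT2 2.1.0, dropped genes below 10 reads in total and normalized with DESeq2. They deposited log2 expression values for 13188 genes in 18 libraries, used here as they stand. The read counter, annotation and log transformation are not given in the sources used here. Off the log scale each library sums to 86.3 to 161 times a CPM total, so the values are not plain CPM. Depth, and the precision it gives, is unknown.

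Groups were compared with limma 3.58.1 in R 4.3.3 (lmFit, eBayes with trend), with only the groups compared in a fit and Benjamini-Hochberg adjustment over all 13188 genes. A gene passed at a fold of 1.5 or more and an adjusted p of 0.01 or less, 2-sided. The code was tested on simulated data with 200 genes moved by a log2FC of 1 among 13188. It called 200 of them in the smaller MYC set, 187 in the larger, 194 for siAHR-2, 190 for siAHR-5, 195 for the difference of MYC effects and 192 between siRNAs, and none of 12988 others.

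The members and gene lists were chosen with earlier results of these data known. Values per library are given for members called in a MYC or siRNA comparison, for genes of licensing, the helicase, GINS, the clamp and the reductase, and for the 3 highest and 3 lowest of each comparison. From other lists up to 4 called genes a comparison are named. Promoters are RefSeq entries of GRCr8, matched by symbol, and no rn6 coordinates were used. Plots used matplotlib 3.10.9 (Python 3.11.15). Alternatives were the cutoff, quantile normalization, median centring, a minimum mean log2 of 5, a pseudocount of 1, no trend, all libraries of a set in one fit, a replicate block, and each library left out in turn.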

Additional observations from a re-analysis of the deposited data

Results flagged for a closer look

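The effect of MYC differed between the sets of libraries for 12 of the 44 replication genes, by the limma test of the difference itself (larger set minus smaller set, log2 scale). All were above 0, where 6.79% of all genes passed, and none was below 0, where 9.67% did. The differences were 1.68 for Rrm2, 1.21 for Rfc4, 0.87 for Pole, 0.87 for Prim2, 0.82 for Mcm3, 0.77 for Mcm5, 0.74 for Mcm6, 0.72 for Mcm10, 0.66 for Pola1, 0.64 for Gins3, 0.62 for Cdt1 and 0.61 for Rrm1. Those of Cdt1, Gins3 and Rrm1 fell under the cutoff after quantile normalization, and that of Pola1 without Sed library 2. As labelled, transfection changes with MYC in both sets, in opposite ways, and its part in these differences was not tested. Whether the titles Sed and Sed siCtrl belong to the right libraries could not be settled.

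Pcna differed between the AHR siRNAs, by −0.999 on the log2 scale (siAHR-5 minus siAHR-2, limma adjusted p = 5.44e-05), while the Ahr level differed by −0.11 (limma adjusted p = 0.211).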

How the results depend on the processing

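No member that passed the cutoffs reversed its direction under the alternatives run. Genes named from the other lists were not checked one by one under these alternatives. Median centring moves every gene of a comparison by the same amount: the siAHR-2 medians went from 0.02 to −0.015 for the members and from 0.00 to −0.031 for all genes. With an adjusted p below 0.05 and no fold cutoff, the higher and lower members were 22 and 17 in the smaller set (37.3% and 39% of all genes), 38 and 2 in the larger set (31.6% and 33.1%), 11 and 4 with siAHR-2 (13.7% and 15.5%), 5 and 23 with siAHR-5 (21.1% and 18.1%), and 3 and 26 for siAHR-5 against siAHR-2 (22.1% and 17%). For the difference of MYC effects 40 were above 0 (24.8%). Quantile normalization gave 5 higher and 0 lower members in the smaller set (13.6% and 12.8% of all genes under that setting) and medians of 0.17 in the smaller set, 0.61 in the larger set and 0.059 with siAHR-2. Median centring gave 2 lower members (15.5% of all genes) and a median of 0.029 in the smaller set (−0.046 for all genes), a median of −0.18 with siAHR-5 (−0.046 for all genes), and 20 members above 0 (8.7%) and a median of 0.57 (0.070 for all genes) for the difference of MYC effects. The cause was not tested.

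Leaving out each library in turn gave 2 to 4 higher and 1 to 2 lower members in the smaller set (median 0.06 to 0.09), 17 to 20 higher in the larger set (0.52 to 0.54), 12 to 14 for the difference (0.45 to 0.50), 0 with siAHR-2 (0.01 to 0.02), and 1 lower with siAHR-5 (−0.13 to −0.11) and between siRNAs (−0.15 to −0.14). In the smaller set, 4 were higher without Sed siCtrl library 1 or SedMYC library 3, through Orc3 (0.60 and 0.59).

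Over all genes the balance of calls turned with median centring for siAHR-5 and for the difference of MYC effects, and with quantile normalization for both MYC comparisons. Quantile normalization gave 1799 higher and 1684 lower in the smaller set (1653 and 1885 as reported) and 1796 and 1661 in the larger (1425 and 1936). Calls with siAHR-5 were 195 higher and 112 lower, 127 and 126 after quantile normalization, and 140 and 165 after median centring. Median centring also gave 15 higher and 53 lower with siAHR-2 (21 and 41 as reported) and 1148 and 1036 for the difference of MYC effects (896 and 1275). Blocking on the replicate number left 3 higher and 1 lower members called in the smaller set, 18 higher in the larger, 0 with siAHR-2, 1 with siAHR-5, 12 for the difference and 1 between siRNAs, although over all genes siAHR-2 calls went from 21 and 41 to 0; same-numbered libraries did not deviate together (correlations of −0.26 to 0.24), so the numbers were not treated as pairs. Depth limits could not be given without counts.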

Other observations

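Genes that follow the fork to restore chromatin and genes of G2 and mitosis were measured beside the replication genes. Of 7 replication-coupled chromatin factors, Asf1a, a histone chaperone, was higher with MYC in each set: 11.39, 11.41 and 11.33 without MYC and 12.27, 12.29 and 12.25 with MYC in the smaller set (log2FC 0.90, SE 0.0365, limma adjusted p = 1.31e-09) and 11.85, 11.94 and 11.92 without MYC and 13.09, 13.08 and 13.12 with MYC in the larger set (log2FC 1.19, SE 0.0339, limma adjusted p = 1.65e-06). No other of the 7 passed in either set, beside 12.5% and 10.8% of all genes as higher and 14.3% and 14.7% as lower. None passed with either siRNA, as with nearly all genes (0.159% to 1.48% passed, by siRNA and direction). Uhrf1, which reads hemimethylated DNA behind the fork, had log2FC of −0.36 in the smaller set and 0.49 in the larger, a difference of 0.85 that passed the cutoffs by limma.

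Of 11 measured G2 and M phase markers, 0 passed as higher and 2 as lower in the smaller set, beside 12.5% and 14.3% of all genes, with a median log2FC of −0.13. In the larger set 1 passed as higher and 1 as lower, beside 10.8% and 14.7%, with a median of −0.02. Plk1, a mitotic kinase, was lower with MYC in both sets (log2FC −0.83 and −0.60), with values of 15.12, 15.15 and 15.06 without MYC and 14.48, 14.54 and 14.50 with MYC in the larger set. Kif11, a spindle motor, was lower in the smaller set (−0.68), and Aurkb, a chromosomal passenger kinase, higher in the larger set (0.64). None of the 11 passed with either siRNA, where few of all genes did (0.159% to 1.48% by siRNA and direction).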
